A study of Mus musculus with 73 samples.

Results

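Imprinted genes, which are transcribed mainly or only from the copy inherited from 1 parent, were followed through 8 RNA-seq libraries of early mouse embryos. The 33 genes were taken from the literature by the parental copy that is known to be expressed, and all 33 were found among the 25220 gene symbols of the deposited expression table. They comprised 24 paternally expressed genes, 8 maternally expressed genes, and Gnas, whose transcripts come from the maternal, the paternal or both copies. Of the 24 paternally expressed genes, 19 are tied to DNA methylation set down in the germline and 5 (Sfmbt2, Gab1, Slc38a4, Jade1 and Smoc1) to the repressive histone mark H3K27me3 inherited from the oocyte.

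The embryos belong to a study of histone H3.3 with 73 samples, of which the 65 chromatin samples were not analysed here. The RNA-seq groups were p150DN 8-cell embryos (3 libraries), EGFP blastocysts (2 libraries) and EGFP 8-cell embryos (3 libraries). The embryos of all groups were of a hybrid C57BL/6 / C3H background and were cultured in KSOM medium, and their total RNA went into a stranded SMART-seq library. p150, encoded by Chaf1a, is the largest protein of CAF-1, which loads histones H3 and H4 onto DNA behind the replication fork. p150DN is its dominant-negative form, and EGFP was the control protein. For the 2-cell chromatin samples the labels state that mRNA for EGFP or for an EGFP-p150DN fusion was put into the cytoplasm of 1-cell embryos, and for the RNA-seq embryos they do not state how the proteins were supplied. The numbers of embryos per library, their litters and their hours of culture are not given, so the spread that the p-values rest on may be technical.

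In mammals, germline DNA methylation at imprinting control regions survives the genome-wide loss of methylation after fertilization because the zinc finger protein ZFP57, bound to methylated DNA, and its partner TRIM28 (KAP1) keep the methylated copy marked. A smaller set of genes is silenced on the maternal copy in early mouse embryos by H3K27me3 without DNA methylation. For some of them that imprint lasts only in the placental lineages. Imprinted genes as a group are known for roles in growth of the fetus and placenta. Reads were summed over both parental copies here, so a higher level cannot be assigned to a copy, and nothing below measures loss or retention of imprinting.

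The promoters of 4 of the genes are shown because they come from both classes of paternally expressed genes and because their transcripts differed between groups. Each line is the 250 bases before a transcript start from RefSeq (assembly GRCm38.p6), 5′ to 3′ on the strand of the gene. Zdbf2 (chr1:63200108-63200357, plus strand, the upstream of its starts), Mest (chr6:30737803-30738052, plus strand) and Peg3 (chr7:6730420-6730669, minus strand) belong to the DNA methylation class. Slc38a4 (chr15:97020360-97020609, minus strand, the furthest downstream of its starts) belongs to the H3K27me3 class. Capitals mark the hexamer TGCCGC, which ZFP57 binds when it is methylated, on either strand in Zdbf2, Mest and Peg3, and the core GCCATNTT of the zinc finger protein YY1 on either strand in Slc38a4.
Zdbf2: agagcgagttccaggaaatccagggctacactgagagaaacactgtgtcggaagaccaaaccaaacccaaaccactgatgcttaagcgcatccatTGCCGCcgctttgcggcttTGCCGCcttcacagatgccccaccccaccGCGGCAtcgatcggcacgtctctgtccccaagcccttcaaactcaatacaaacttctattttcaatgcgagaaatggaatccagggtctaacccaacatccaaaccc
Mest: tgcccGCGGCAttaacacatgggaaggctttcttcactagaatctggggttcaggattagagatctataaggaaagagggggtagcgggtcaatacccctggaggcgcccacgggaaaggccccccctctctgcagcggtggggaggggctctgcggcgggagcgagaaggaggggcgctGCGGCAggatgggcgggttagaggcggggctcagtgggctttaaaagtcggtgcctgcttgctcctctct
Peg3: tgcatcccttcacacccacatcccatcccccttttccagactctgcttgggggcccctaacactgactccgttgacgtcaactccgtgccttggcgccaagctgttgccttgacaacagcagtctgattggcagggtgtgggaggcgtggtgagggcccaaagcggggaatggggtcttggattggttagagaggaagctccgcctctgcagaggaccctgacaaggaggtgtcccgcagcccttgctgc
Slc38a4: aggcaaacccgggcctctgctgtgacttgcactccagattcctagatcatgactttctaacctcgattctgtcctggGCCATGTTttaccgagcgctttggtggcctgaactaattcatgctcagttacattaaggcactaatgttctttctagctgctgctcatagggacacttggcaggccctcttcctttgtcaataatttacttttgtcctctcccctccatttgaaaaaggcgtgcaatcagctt

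The Zdbf2 window holds 3 copies of the hexamer and the Mest window holds 2 copies, while the Peg3 window holds none. RefSeq windows of 28 of the 33 genes were used, 50 windows in all, and 7 of the 50 (14.0%) hold the hexamer, against 8.68% of all 32851 windows of the same length. The genes with it are Zdbf2, Mest, Plagl1, Nap1l5, Mcts2 and Meg3, and none of the 4 genes of the H3K27me3 class with a window is among them. The YY1 core stands in 3 of the 50 windows (6.0%), against 3.91% of all windows. The 3 are 1 window each of Gab1, Jade1 and Slc38a4, whose other windows do not hold it. The windows of the imprinted genes hold a median of 11.5 CpG dinucleotides, against 6.0 over all windows. A match is a run of letters and not a measured site, and many imprinting control regions lie outside these windows.

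Between 16578221 and 22488477 fragments were counted per library, and values are FPKM, counted fragments per kilobase of gene at a common library total. Chaf1a stood at 165, 254 and 238 FPKM in p150DN 8-cell libraries, at 26.5 and 27.2 FPKM in EGFP blastocyst libraries and at 27.7, 30.2 and 28.8 FPKM in EGFP 8-cell libraries, and the embryo's own transcripts cannot be told apart there from those of an introduced sequence. More genes lay above 0 in p150DN replicates 2 and 3 (20465 and 21282) than in p150DN replicate 1 (18412) or in any EGFP library (17310 to 18991). Summed FPKM of 10 trophectoderm markers, genes of the outer layer of the blastocyst, was 408 to 628 in p150DN 8-cell, 1315 to 1355 in EGFP blastocyst and 264 to 286 in EGFP 8-cell libraries, and that of 9 oocyte markers was 33.7 to 80.4 in p150DN 8-cell, 9.33 to 10.9 in EGFP blastocyst and 86.3 to 179 in EGFP 8-cell libraries. Of the oocyte markers 3 of 9 fell in p150DN against EGFP 8-cell embryos, and of the trophectoderm markers 6 of 9 tested rose and 1 fell, where 24.6% of all tested genes rose and 9.68% fell. The trophectoderm marker Eomes passed the limit of 1 FPKM only through the p150DN libraries, and without it 5 of 8 rose and 1 fell. The 10 markers of cumulus and granulosa cells, somatic cells of the follicle, summed to at most 1.56 FPKM in any library, with Has2 at 0 in every 8-cell library. In whole embryos, fewer cells of a type and less RNA per cell cannot be told apart.

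In p150DN 8-cell embryos 9 paternally expressed genes stood above their level in EGFP 8-cell embryos, most of all Zdbf2 and Sfmbt2, and the maternally expressed Igf2r stood below it. Of the 33 genes, 22 reached 1 FPKM in at least 3 of the 6 8-cell libraries and were tested with limma on log2(FPKM + 1), and 10 rose and 1 fell at a Benjamini-Hochberg adjusted p below 0.05 over all 11730 tested genes, of which 24.6% rose and 9.68% fell (34.3% called). Of 16 paternally expressed genes tested, 9 rose (Zdbf2, Peg3, Igf2, Zrsr1, Impact, Snrpn, Sfmbt2, Slc38a4 and Smoc1) and none fell. Of 5 maternally expressed genes tested, none rose and 1, Igf2r, fell, and Gnas rose. The median difference of the 22 genes was 0.65 on the log2 scale, against 0.19 over all genes tested. It was 0.74 for the 16 paternally expressed genes and 0.41 for the 5 maternally expressed genes, so both class medians lay above that of all genes. Igf2 passed the 1 FPKM limit only through the p150DN libraries, and without it the counts were 9 higher and 1 lower of 21. Igf2 therefore had to lie above. It is still in the 9 paternally expressed genes that rose and in the medians of the 22 and of the 16 genes. Under median-of-ratios scaling the median of all genes was -0.06 in place of 0.19, and the counts were 8 higher and 2 lower. Quantile normalization, with a median of -0.03, gave 6 higher and 2 lower, and Usp29 was the second fall under both scalings.

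**Figure D1:**
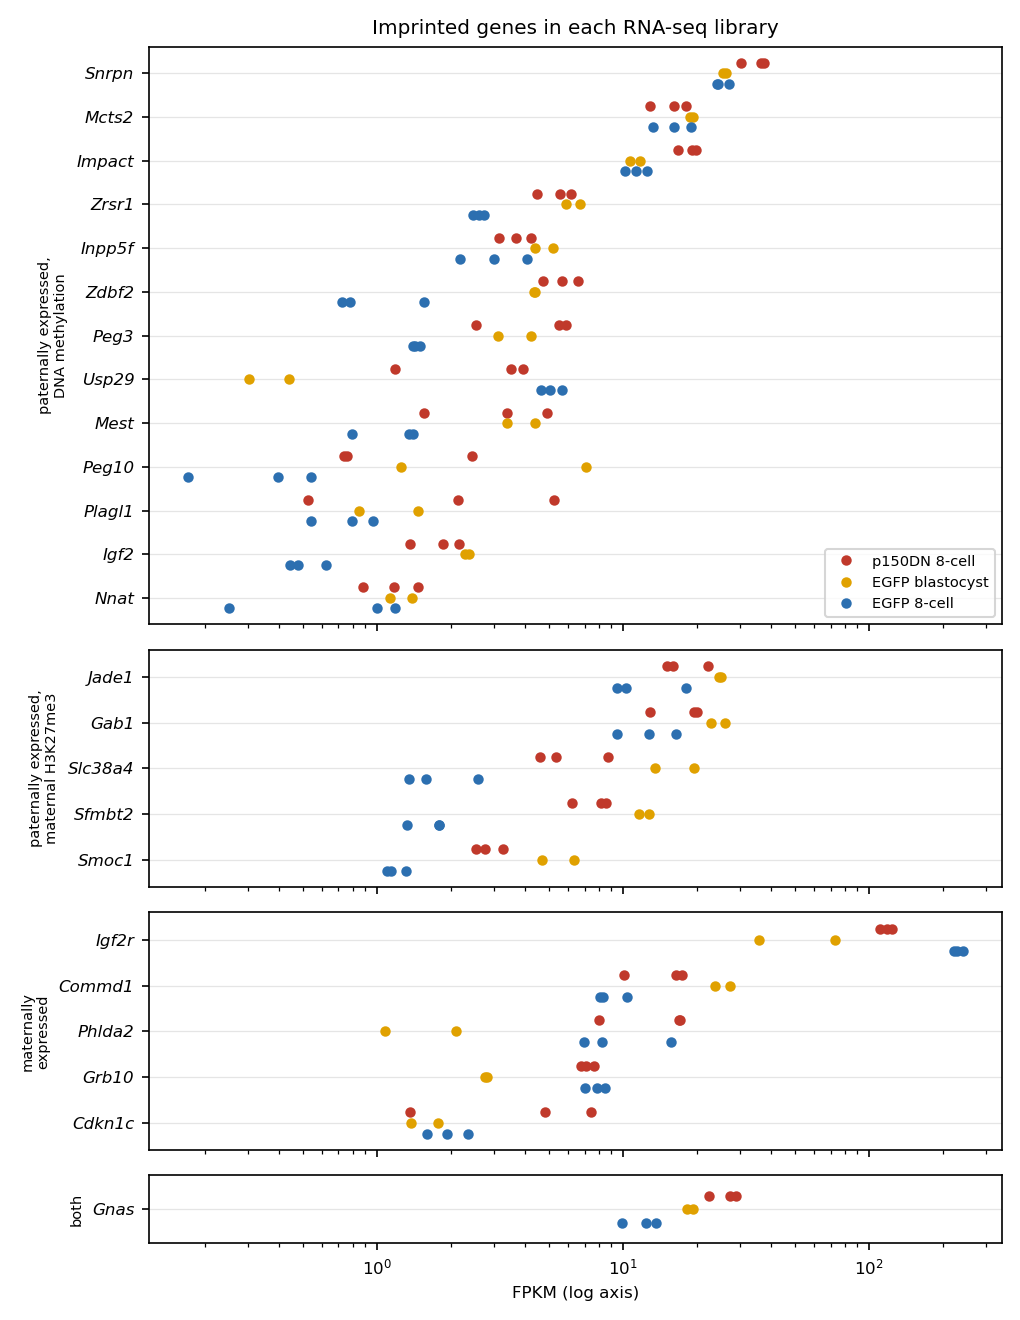
FPKM of the 24 imprinted genes that reached 1 FPKM in at least 3 of the 8 libraries, on a log axis, 1 point per library, in panels by the expressed parental copy. Zdbf2, Sfmbt2, Slc38a4 and Igf2 lie to the right of EGFP 8-cell in both other groups, while Igf2r lies to the left of it in both.

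The same 22 genes can be set against the libraries themselves. In 13 of the 22 the p150DN libraries lay either all above or all below the 3 EGFP 8-cell libraries, which was so for 49.8% of all genes tested. Of these 13 genes, 11 lay above (the 10 that rose and Mest) and 2 below (Igf2r and Usp29). Igf2 is among the 11, where the 1 FPKM limit had fixed its place. All differences are in log2(FPKM + 1), where genes near 1 FPKM show less than their true change.

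Zdbf2 (chr1:63200358-63314576), a zinc finger gene whose paternal expression starts from an upstream promoter in the early embryo, had the largest rise among the 22 genes. It was at 4.75, 5.65 and 6.58 FPKM in p150DN 8-cell libraries, at 4.37 and 4.42 FPKM in EGFP blastocyst libraries and at 0.783, 0.723 and 1.55 FPKM in EGFP 8-cell libraries. Every p150DN library lay above every EGFP library of either stage. The difference from EGFP 8-cell embryos was 1.74 ± 0.22 (SE; limma adjusted p = 0.00094), and it passed the test under all 13 alternative settings that kept the gene. The 2 RefSeq starts of Zdbf2 lie 72.9 kb apart, and a gene-level value does not say which one was used.

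Peg3 and Usp29 share 1 control region on chromosome 7, lie on opposite strands and are both paternally expressed. The starts used for their promoter windows lie 164 bases apart, and the span given with each gene begins at another start. In p150DN embryos the values of Peg3 and Usp29 lay on opposite sides of the EGFP 8-cell libraries. Peg3 (chr7:6703892-6730462) encodes a zinc finger protein known in mice for effects on growth and maternal behaviour. It had 2.53, 5.87 and 5.53 FPKM in p150DN 8-cell libraries, 4.25 and 3.11 FPKM in EGFP blastocyst libraries and 1.5, 1.41 and 1.43 FPKM in EGFP 8-cell libraries. The p150DN libraries were all higher, with replicate 1 nearest to the controls, and the difference was 1.15 ± 0.27 (limma adjusted p = 0.012). Without p150DN replicate 3 it was 1.01 with an adjusted p of 0.052, and with p150DN replicate 1 alone it was 0.53.

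Usp29 (chr7:6730559-6967220), a gene for a deubiquitinase of the USP family, had 1.19, 3.93 and 3.52 FPKM in p150DN 8-cell libraries, 0.439 and 0.302 FPKM in EGFP blastocyst libraries and 4.66, 5.67 and 5.07 FPKM in EGFP 8-cell libraries. The p150DN libraries all lay below the EGFP 8-cell libraries and above the blastocysts, but the difference of -0.75 ± 0.30 did not pass (limma adjusted p = 0.087). Under median-of-ratios scaling it was -0.98 and passed (adjusted p = 0.019), and with quantile normalization it was -1.09 and passed (adjusted p = 0.012). Zim3, a gene annotated within the span of Usp29 and chosen after its values were seen, had 280, 846 and 666 fragments in p150DN 8-cell libraries, 95 in each EGFP blastocyst library and 1086, 1347 and 1183 in EGFP 8-cell libraries. Usp29 itself had 356, 1130 and 858 fragments in p150DN 8-cell libraries, 125 and 100 in EGFP blastocyst libraries and 1429, 1689 and 1442 in EGFP 8-cell libraries, so that both genes had the same order of groups. Overlapping genes cannot be separated here, since the labels do not say how strand and annotation entered the counting.

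**Figure D2:**
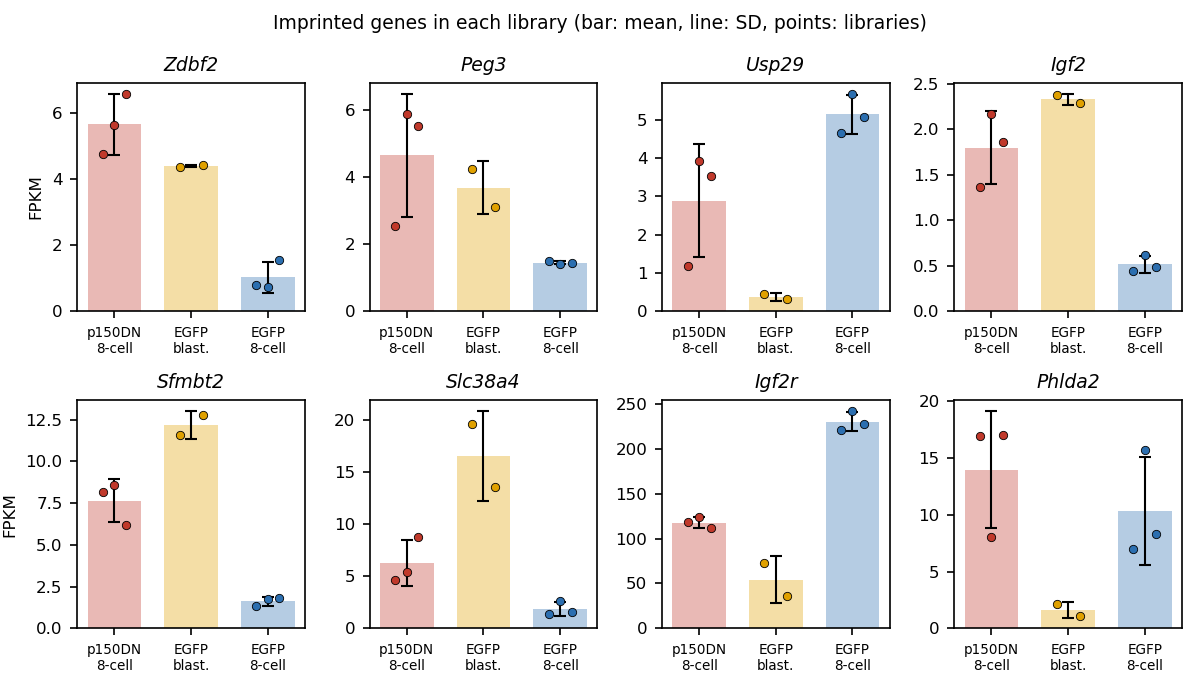
FPKM of 8 imprinted genes, with bars for group means, lines for 1 SD and points for libraries (3 p150DN 8-cell, 2 EGFP blastocyst, 3 EGFP 8-cell), each panel with its own axis from 0. Peg3 is highest in p150DN replicates 2 and 3 (5.87 and 5.53 FPKM), while Usp29 and Igf2r are highest in the EGFP 8-cell libraries.

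Among the other genes of the DNA methylation class, 4 more rose. Igf2 (chr7:142650768-142666816), which encodes the fetal growth factor IGF2, was at 1.37, 2.17 and 1.87 FPKM in p150DN 8-cell libraries, 2.37 and 2.29 FPKM in EGFP blastocyst libraries and 0.445, 0.622 and 0.480 FPKM in EGFP 8-cell libraries. These values rest on 126 to 192 fragments in p150DN 8-cell, 208 to 233 in EGFP blastocyst and 42 to 57 in EGFP 8-cell libraries. The p150DN libraries lay above the EGFP 8-cell libraries by 0.88 ± 0.20 (limma adjusted p = 0.010). They had to lie above, since only p150DN libraries brought Igf2 past the 1 FPKM limit. The difference was 0.50 with an adjusted p of 0.056 under quantile normalization, and 0.84 with an adjusted p of 0.060 without EGFP 8-cell replicate 1.

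Zrsr1 (chr11:22972005-22976496), a U2AF-related splicing gene that lies within the maternally expressed gene Commd1, was at 4.49, 5.57 and 6.19 FPKM in p150DN 8-cell libraries, 5.90 and 6.72 FPKM in EGFP blastocyst libraries and 2.47, 2.73 and 2.61 FPKM in EGFP 8-cell libraries. The groups of 8-cell embryos did not overlap, and the difference was 0.82 ± 0.18 (limma adjusted p = 0.0096), against 0.44 (adjusted p = 0.071) with quantile normalization.

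Impact (chr18:12954690-12992950), known for its part in the response of translation to amino acid shortage, was at 16.7, 19.8 and 19.1 FPKM in p150DN 8-cell libraries, 10.7 and 11.8 FPKM in EGFP blastocyst libraries and 10.2, 11.3 and 12.5 FPKM in EGFP 8-cell libraries. It was higher in p150DN than in EGFP 8-cell embryos by 0.66 ± 0.15 (limma adjusted p = 0.0100), and the blastocyst libraries fell within the range of the EGFP 8-cell libraries. With median-of-ratios scaling the difference was 0.39 (adjusted p = 0.074), and without EGFP 8-cell replicate 1 it was 0.60 (adjusted p = 0.051).

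Snrpn, which encodes a protein of the splicing small nuclear ribonucleoproteins, was at 37.4, 36.5 and 30.2 FPKM in p150DN 8-cell libraries, 25.7 and 26.3 FPKM in EGFP blastocyst libraries and 26.9, 24.5 and 24.2 FPKM in EGFP 8-cell libraries. Its difference of 0.44 ± 0.14 (limma adjusted p = 0.035) was the smallest of those that passed, and it did not pass in 9 of 14 alternative settings, 5 of which left out a single library (1 of p150DN replicates 1 and 2, or any 1 of the EGFP 8-cell libraries). Snurf, which lies on the same transcripts, had nearly the same fragments in each library (3110, 2909 and 2044 in p150DN libraries, against 3119, 2925 and 2049 for Snrpn).

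The remaining tested genes of this class did not pass. Mest (chr6:30733506-30748466), a gene of the mesoderm with a hydrolase fold, was at 1.56, 4.93 and 3.39 FPKM in p150DN 8-cell libraries, 3.38 and 4.40 FPKM in EGFP blastocyst libraries and 0.795, 1.41 and 1.36 FPKM in EGFP 8-cell libraries. Each p150DN library was above each EGFP 8-cell library, and the difference of 0.90 ± 0.31 lay just beyond the threshold (limma adjusted p = 0.051). Inpp5f, an inositol phosphatase gene, was at 4.23, 3.68 and 3.14 FPKM in p150DN 8-cell libraries, 5.19 and 4.39 FPKM in EGFP blastocyst libraries and 3.00, 4.08 and 2.17 FPKM in EGFP 8-cell libraries. Its 8-cell groups overlapped. Nnat, which encodes the membrane proteolipid neuronatin, was at 1.47, 0.880 and 1.17 FPKM in p150DN 8-cell libraries, 1.39 and 1.13 FPKM in EGFP blastocyst libraries and 0.252, 1.18 and 1.01 FPKM in EGFP 8-cell libraries, again with overlap.

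Mcts2 is an intronless retrogene inside H13. It was at 16.2, 18 and 12.9 FPKM in p150DN 8-cell libraries, 19.3 and 18.8 FPKM in EGFP blastocyst libraries and 19, 16.1 and 13.3 FPKM in EGFP 8-cell libraries, and its difference between the 8-cell groups was -0.03 ± 0.18. Reads of its parent gene Mcts1 could be shared with it, so these values are uncertain. Plagl1, a zinc finger regulator of growth, was not tested in this comparison and varied widely among p150DN libraries, with 0.524, 5.25 and 2.15 FPKM in p150DN 8-cell libraries, 0.851 and 1.47 FPKM in EGFP blastocyst libraries and 0.962, 0.796 and 0.542 FPKM in EGFP 8-cell libraries. Peg10, a retrotransposon-derived gene needed for the placenta in mice, was also not tested there, with 0.758, 0.736 and 2.45 FPKM in p150DN 8-cell libraries, 7.13 and 1.25 FPKM in EGFP blastocyst libraries and 0.396, 0.541 and 0.171 FPKM in EGFP 8-cell libraries. Every p150DN library was above every EGFP 8-cell library, and the 2 blastocyst libraries differed widely.

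All 5 genes of the H3K27me3 class were tested, and 3 rose, where 24.6% of all tested genes rose. Sfmbt2 (chr2:10370440-10595253), a Polycomb group gene needed in the mouse placenta, was at 8.14, 8.6 and 6.21 FPKM in p150DN 8-cell libraries, 11.6 and 12.8 FPKM in EGFP blastocyst libraries and 1.32, 1.79 and 1.79 FPKM in EGFP 8-cell libraries. The 3 groups did not overlap, with p150DN embryos between the EGFP stages, and the difference from EGFP 8-cell embryos was 1.71 ± 0.20 (limma adjusted p = 0.00061), called under all 14 alternatives. A large cluster of microRNAs lies in an intron of Sfmbt2, and its 71 annotated loci together held 206, 89 and 102 fragments in p150DN 8-cell libraries, 319 and 292 in EGFP blastocyst libraries and 3, 40 and 10 in EGFP 8-cell libraries. These loci are short and repetitive, and a total RNA library made for long transcripts does not count mature microRNAs, so these fragments are uncertain. They are also the least whole numbers that fit the FPKM values, so the true counts may be higher.

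Slc38a4 (chr15:96994816-97055956), a neutral amino acid transporter of liver and placenta, was at 4.63, 5.36 and 8.74 FPKM in p150DN 8-cell libraries, 19.6 and 13.5 FPKM in EGFP blastocyst libraries and 1.35, 2.59 and 1.59 FPKM in EGFP 8-cell libraries. The p150DN libraries stood above EGFP 8-cell and below the blastocysts, with a difference from EGFP 8-cell embryos of 1.33 ± 0.26 (limma adjusted p = 0.0058). Smoc1, a matricellular calcium-binding protein gene, was at 2.77, 2.53 and 3.26 FPKM in p150DN 8-cell libraries, 4.68 and 6.36 FPKM in EGFP blastocyst libraries and 1.32, 1.10 and 1.14 FPKM in EGFP 8-cell libraries. It showed the same order without overlap, with a difference of 0.81 ± 0.18 (limma adjusted p = 0.010), or 0.40 (adjusted p = 0.13) under quantile normalization.

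Gab1 and Jade1 did not pass. Gab1, an adaptor of receptor tyrosine kinase signalling, was at 19.4, 13 and 20.1 FPKM in p150DN 8-cell libraries, 22.8 and 26.0 FPKM in EGFP blastocyst libraries and 12.7, 9.46 and 16.5 FPKM in EGFP 8-cell libraries. Jade1, a subunit gene of a histone H4 acetyltransferase complex, was at 15.1, 16.0 and 22.3 FPKM in p150DN 8-cell libraries, 24.6 and 25.1 FPKM in EGFP blastocyst libraries and 10.3, 18.1 and 9.51 FPKM in EGFP 8-cell libraries. In both genes the 8-cell groups overlapped, and the difference was 0.42 ± 0.23 for Gab1 and 0.50 ± 0.25 for Jade1. In the same p150DN libraries 6 of 9 tested trophectoderm markers rose (5 of 8 without Eomes), Tead4 fell (-1.25 ± 0.13) and Tfap2c and Fgfr2 did not pass. Of 8 tested markers of the inner cell mass, the inner cells of the blastocyst, 4 rose and 1 fell. Sox2 passed the 1 FPKM limit only through the p150DN libraries, and without it 3 rose and 1 fell of 7. Of 4 tested markers of the primitive endoderm, which forms from the inner cell mass, 2 rose and 1 fell. Over all tested genes 24.6% rose and 9.68% fell. The part of these markers in the values of the H3K27me3 class was not tested.

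**Figure D3:**
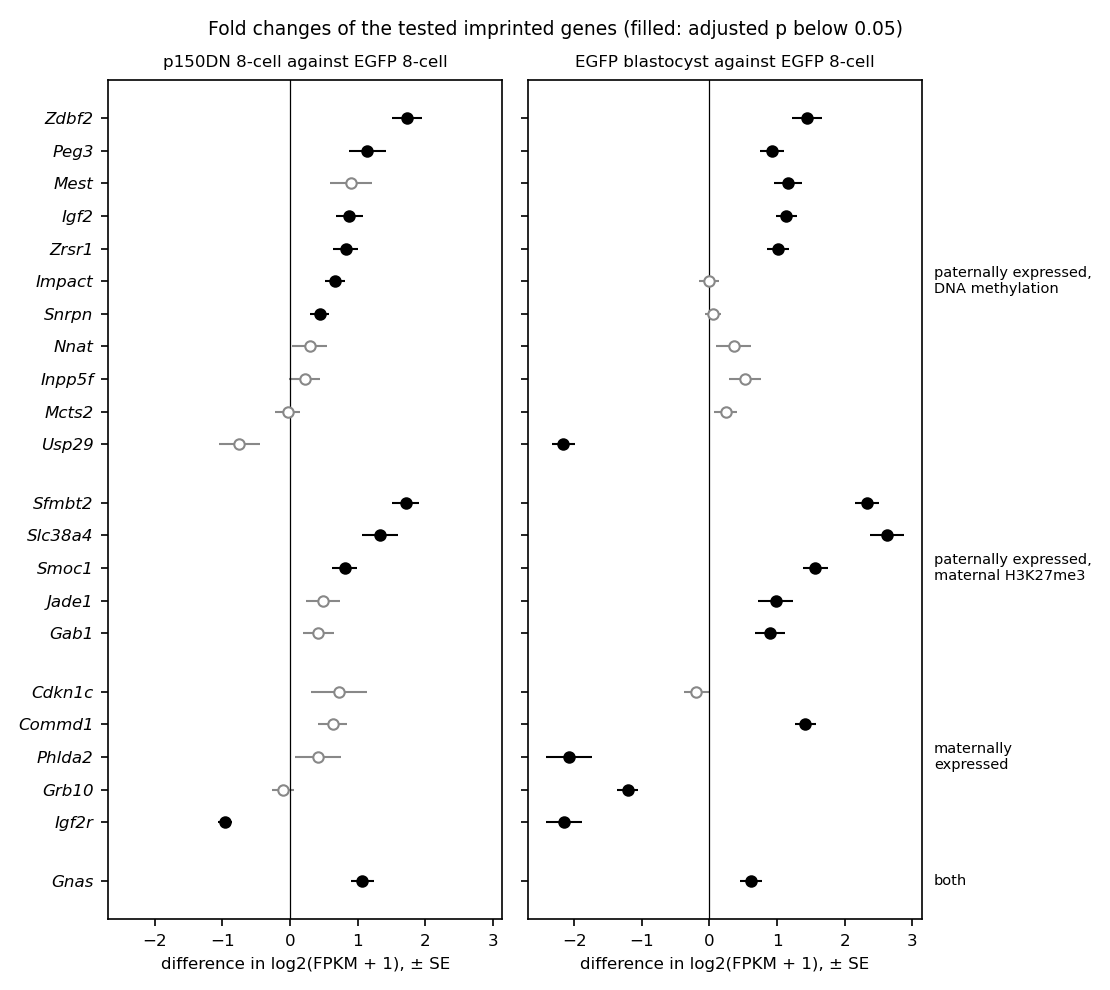
Differences in log2(FPKM + 1) with their standard errors for the 22 imprinted genes tested in both comparisons with EGFP 8-cell embryos, p150DN 8-cell embryos on the left and EGFP blastocysts on the right, filled where the adjusted p was below 0.05. The left panel has 10 filled points above 0 and 1 below, Igf2r at -0.96. Both panels use the same EGFP 8-cell libraries.

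Igf2r (chr17:12682406-12769706) had the highest FPKM of the imprinted genes in every library and was the only one that fell. It encodes the receptor that takes IGF2 to the lysosome, so that it acts against the paternally expressed growth factor. Igf2r was at 118, 124 and 111 FPKM in p150DN 8-cell libraries, 72.6 and 35.8 FPKM in EGFP blastocyst libraries and 221, 242 and 228 FPKM in EGFP 8-cell libraries. No group overlapped another. The difference between the 8-cell groups was -0.96 ± 0.11 (limma adjusted p = 0.00054), it rested on 16484 to 21630 fragments in p150DN and 39378 to 43729 in EGFP 8-cell libraries, and it passed under all 14 alternatives. Airn, the paternally expressed antisense transcript that silences Igf2r in the mouse, lay between 0 and 0.331 FPKM in the 8 libraries. Of the 9 oocyte markers 3 also fell in p150DN against EGFP 8-cell embryos (Oosp1, Omt2a and Omt2b), where 9.68% of all tested genes fell. The other 6 overlapped between the groups and did not pass. The part of these markers in the fall of Igf2r was not tested.

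The other maternally expressed genes did not pass between the 8-cell groups. Grb10, which encodes an adaptor that dampens insulin signalling, was at 7.63, 6.78 and 7.10 FPKM in p150DN 8-cell libraries, 2.75 and 2.81 FPKM in EGFP blastocyst libraries and 7.01, 7.83 and 8.50 FPKM in EGFP 8-cell libraries. The 8-cell groups overlapped, with a difference of -0.10 ± 0.16, and the blastocysts lay below both. Phlda2, a gene that restricts growth of the placenta in mice, was at 16.9, 8.05 and 17.0 FPKM in p150DN 8-cell libraries, 2.10 and 1.09 FPKM in EGFP blastocyst libraries and 6.97, 15.8 and 8.28 FPKM in EGFP 8-cell libraries. Its 8-cell groups overlapped too, with a difference of 0.41 ± 0.34.

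Cdkn1c encodes the cyclin-dependent kinase inhibitor p57 (KIP2). It was at 1.36, 4.82 and 7.42 FPKM in p150DN 8-cell libraries, 1.78 and 1.37 FPKM in EGFP blastocyst libraries and 1.61, 1.93 and 2.34 FPKM in EGFP 8-cell libraries. Replicate 1 of the p150DN group lay below every EGFP 8-cell library and the other p150DN replicates lay above them, so the difference of 0.73 ± 0.41 did not pass (limma adjusted p = 0.20), while without p150DN replicate 1 it was 1.25 and passed (adjusted p = 0.0080). Commd1, a copper metabolism gene and the host of Zrsr1, was at 16.5, 10.1 and 17.4 FPKM in p150DN 8-cell libraries, 23.8 and 27.2 FPKM in EGFP blastocyst libraries and 10.4, 8.08 and 8.30 FPKM in EGFP 8-cell libraries. Of its p150DN libraries 1 lay within the EGFP 8-cell range, and the difference of 0.63 ± 0.22 was just beyond the threshold (limma adjusted p = 0.053). Commd1 was called higher in 4 of 14 alternative settings and was not called in the other 10.

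Gnas (chr2:174284320-174346744), which encodes the stimulatory G protein alpha subunit and, from other promoters, imprinted transcripts of either parental copy, was at 22.5, 28.8 and 27.4 FPKM in p150DN 8-cell libraries, 18.3 and 19.3 FPKM in EGFP blastocyst libraries and 13.6, 9.94 and 12.5 FPKM in EGFP 8-cell libraries. The p150DN libraries were the highest of all 8, and the difference from EGFP 8-cell embryos was 1.07 ± 0.17 (limma adjusted p = 0.0021). The gene-level value does not separate the transcripts of its different promoters.

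Because p150DN replicate 1 had fewer genes above 0 than replicates 2 and 3, the comparison was repeated with replicate 1 as the lone p150DN library, assumed to vary like the EGFP 8-cell libraries. Zdbf2 and Sfmbt2 were then called higher and Igf2r and Usp29 lower, and the differences of the other 8 genes that had risen stayed above 0, between 0.53 (Impact and Peg3) and 1.01 (Slc38a4), with adjusted p-values of 0.065 to 0.13 in limma.

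The 9 imprinted genes below 1 FPKM in more than 5 of the 8 libraries were tested in none of the comparisons. At the Dlk1-Meg3 locus on chromosome 12 the maternally expressed noncoding RNA Meg3 had 53, 76 and 133 fragments in p150DN 8-cell libraries, 109 and 150 in EGFP blastocyst libraries and 5, 5 and 22 in EGFP 8-cell libraries, at most 0.619 FPKM over its length of 12956 bases. Both other groups lay above the EGFP 8-cell libraries. Rian, a noncoding RNA of the same cluster, had 78, 171 and 67 fragments in p150DN 8-cell libraries, 211 and 341 in EGFP blastocyst libraries and 3, 16 and 15 in EGFP 8-cell libraries, and its difference between the 8-cell groups was 1.10 ± 0.25 (limma adjusted p = 0.0096). Rian passed the 1 FPKM limit there only through the p150DN libraries, so it had to differ. Rtl1, a retrotransposon-derived gene, had 12 to 23 fragments in p150DN 8-cell, 25 to 36 in EGFP blastocyst and 0 to 1 in EGFP 8-cell libraries. The ligand gene Dlk1 of this locus had 0 to 12 fragments in p150DN 8-cell, 1 to 4 in EGFP blastocyst and 0 to 3 in EGFP 8-cell libraries, and its groups overlapped.

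**Figure D4:**
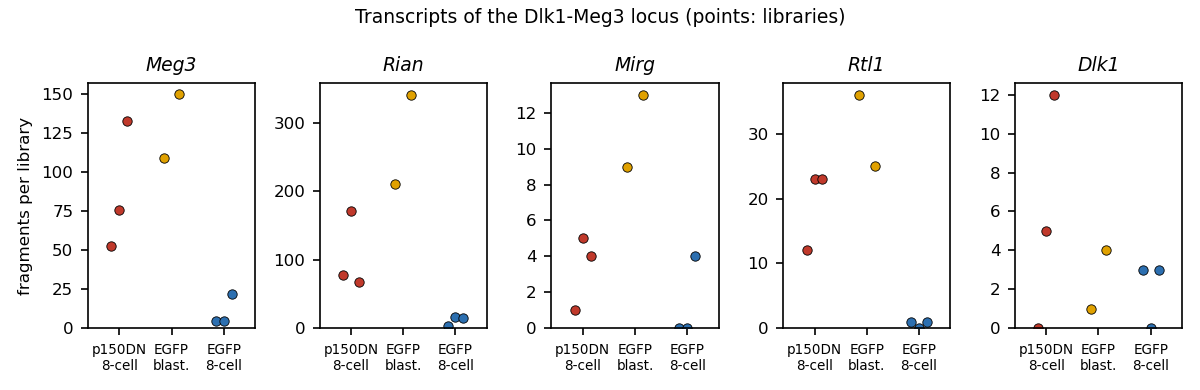
Fragments per library of 5 transcripts of the Dlk1-Meg3 locus, 1 point per library, each panel with its own axis from 0, with p150DN 8-cell, EGFP blastocyst and EGFP 8-cell from left to right. Meg3, Rian and Rtl1 are low in the EGFP 8-cell libraries (at most 22, 16 and 1 fragments) and higher in all libraries of both other groups.

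Kcnq1ot1, the noncoding RNA that silences its neighbours on the paternal copy, was between 0.566 and 0.996 FPKM in p150DN 8-cell, 0.699 and 0.730 FPKM in EGFP blastocyst and 0.577 and 0.774 FPKM in EGFP 8-cell libraries, with overlap of the groups. It is 83437 bases long, and 923 to 1378 fragments stood behind each value. Ndn, of the Prader-Willi region, had 7, 9 and 5 fragments in p150DN 8-cell libraries, 14 and 4 in EGFP blastocyst libraries and none in any EGFP 8-cell library, where a count of 0 allows up to 3 fragments per library by counting error alone. H19, Peg12, Nap1l5, Ascl2 and Magel2 had at most 28 fragments in any library, and their groups overlapped between the 8-cell embryos.

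In EGFP blastocysts most of the tested paternally expressed genes were higher, and most of the tested maternally expressed genes were lower, than in EGFP 8-cell embryos. Of the 33 genes, 23 were tested in EGFP blastocysts against EGFP 8-cell embryos, and 13 rose and 4 fell, where 42.6% and 24.9% of all 12199 tested genes rose and fell (67.5% called). Of 17 paternally expressed genes 11 rose and 1, Usp29, fell, and of 5 maternally expressed genes 1, Commd1, rose and 3, Igf2r, Phlda2 and Grb10, fell. Igf2, Peg10 and Usp29 passed the 1 FPKM limit through 1 group only, and without them the counts were 11 higher and 3 lower of 20. In 18 of the 23 genes the libraries did not overlap, against 79.6% of all genes tested. The median difference was 0.90, against 0.28 over all genes. Igf2, Peg10 and Usp29 are still in the class counts, in the 18 genes and in this median. The limit had set the direction of their differences. A group with 2 libraries gives little information on its own spread.

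All 5 genes of the H3K27me3 class rose in blastocysts, where 42.6% of all tested genes rose. Slc38a4 differed by 2.63 ± 0.25 (limma adjusted p = 0.00014), Sfmbt2 by 2.33 ± 0.17 (adjusted p = 6.0e-05) and Smoc1 by 1.57 ± 0.18 (adjusted p = 0.00034). Jade1 (0.98 ± 0.26) and Gab1 (0.90 ± 0.22) were also called, with adjusted p-values of 0.013 and 0.0093, but not with either blastocyst library left out (0.072 to 0.13). Of the DNA methylation class, Peg10 (1.65 ± 0.49), Zdbf2 (1.44 ± 0.22), Mest (1.17 ± 0.21), Igf2 (1.14 ± 0.16), Zrsr1 (1.02 ± 0.16) and Peg3 (0.93 ± 0.18) rose. Peg10 was at 7.13 and 1.25 FPKM in the blastocyst libraries, and its difference was 0.73 without blastocyst replicate 1 and 2.58 without blastocyst replicate 2. Its call was lost with no filter on low values (adjusted p = 0.058). Snrpn (0.05 ± 0.12) and Impact (-0.01 ± 0.15), which had risen in p150DN 8-cell embryos, did not pass here.

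The 4 genes that fell had all been at 5 FPKM or more on average in EGFP 8-cell embryos. Usp29 differed by -2.16 ± 0.17 (limma adjusted p = 7.2e-05), Igf2r by -2.15 ± 0.26 (adjusted p = 0.00040), Phlda2 by -2.08 ± 0.34 (adjusted p = 0.0015) and Grb10 by -1.21 ± 0.16 (adjusted p = 0.00058). Commd1 rose by 1.42 ± 0.16 and Gnas by 0.62 ± 0.16, and the Gnas call was lost under both other scalings (0.40 and 0.38) and without either blastocyst library. All 9 oocyte markers fell in blastocysts, where 24.9% of all tested genes fell. Of these markers 4 passed the 1 FPKM limit only through the EGFP 8-cell libraries, and without them 5 of 5 fell. The part of these markers in the falls of the imprinted genes was not tested.

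The p150DN 8-cell embryos were also set directly against the EGFP blastocysts, sharing libraries with both comparisons above. Of 24 imprinted genes tested 5 were higher and 2 lower in p150DN 8-cell embryos, where 11.9% and 14.2% of all 12648 tested genes were higher and lower (26.1% called). Higher were 3 of 5 maternally expressed genes, Phlda2 (2.49 ± 0.35), Igf2r (1.19 ± 0.27) and Grb10 (1.11 ± 0.18), and 2 of 18 paternally expressed genes, Usp29 (1.42 ± 0.38) and Impact (0.67 ± 0.16). Lower were Slc38a4 (-1.30 ± 0.28) and Smoc1 (-0.75 ± 0.21), both of the H3K27me3 class, while Sfmbt2 (-0.62 ± 0.19, limma adjusted p = 0.051) lay just beyond the threshold. Zdbf2 (0.29 ± 0.20) and Peg3 (0.22 ± 0.32) did not pass, which does not show that their levels are alike. In 17 of the 24 genes the libraries did not overlap, against 61.0% of all genes tested. Usp29 passed the 1 FPKM limit only through the p150DN libraries, and without it 4 were higher and 2 lower of 23. It is still in the 17 genes without overlap and in the 2 of 18 paternally expressed genes. These calls rest on both blastocyst libraries, since without blastocyst replicate 1 only Igf2r was called (1.69, adjusted p = 0.043), and without blastocyst replicate 2 limma called none (6 at an unadjusted p below 0.05). Without p150DN replicate 2 there were 4 calls.

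Genes that place, keep and read imprints were examined as 3 lists. Of 14 tested genes that protect or read imprints, 2 rose and 1 fell in p150DN against EGFP 8-cell embryos, where 24.6% of all genes rose and 9.68% fell (34.3% called). Smchd1, a chromatin protein needed for silencing at several imprinted clusters in mice, was at 16.9, 29.5 and 19 FPKM in p150DN 8-cell libraries, 15.6 and 17.0 FPKM in EGFP blastocyst libraries and 54.9, 81.5 and 47.0 FPKM in EGFP 8-cell libraries, a difference between the 8-cell groups of -1.45 ± 0.25 (limma adjusted p = 0.0032). Zfp42 (REX1), a zinc finger relative of YY1, rose by 1.29 ± 0.12, and Uhrf1, the partner of the maintenance methyltransferase, by 0.97 ± 0.16. Zfp57, Trim28 and Dnmt1 did not pass.

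Of 10 genes that establish or erase DNA methylation imprints 3 rose and none fell, a share near the 24.6% of all genes that rose. Dnmt3l, the cofactor of de novo methylation, was at 16.4, 18.3 and 33.8 FPKM in p150DN 8-cell libraries, 28.3 and 27.2 FPKM in EGFP blastocyst libraries and 5.81, 4.78 and 7.03 FPKM in EGFP 8-cell libraries (1.74 ± 0.27, limma adjusted p = 0.0020). Tet2, which oxidizes methylcytosine, rose by 2.59 ± 0.33, and the methyltransferase gene Dnmt3b by 0.69 ± 0.18. Of 10 Polycomb and H3K27 demethylase genes 2 rose (Kdm6b by 1.11 ± 0.17 and Rbbp7 by 0.57 ± 0.14) and 2 fell (Pcgf1, at -1.22 ± 0.17, and Pcgf6, at -0.85 ± 0.21), against the same 34.3% called over all genes. Eed, Ezh2 and Suz12, the core of the complex that writes H3K27me3, did not pass. The medians of these lists were -0.10, 0.16 and 0.07, against 0.19 over all genes.

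Of 14 tested hosts and neighbours of the imprinted genes 5 rose and 1 fell in p150DN against EGFP 8-cell embryos, where 24.6% of all genes rose and 9.68% fell. Ddc and Rian passed the 1 FPKM limit only through the p150DN libraries. Without them 3 rose and 1 fell of 12, with a median of 0.43, against 0.19 over all genes. Snurf, among these 3, lies on the transcripts of Snrpn, so its rise is not separate from that of Snrpn. Ddc (1.56 ± 0.20), the neighbour of Grb10, Rian, Ube3a (1.02 ± 0.20) of the Prader-Willi and Angelman region, Copg2 (0.80 ± 0.21), which overlaps the end of Mest, and Snurf (0.45 ± 0.13) rose, and Nap1l4 (-0.56 ± 0.17), a neighbour of Phlda2, fell. Copg2 was at 3.3, 3.74 and 4.47 FPKM in p150DN 8-cell libraries, 9.67 and 11.4 FPKM in EGFP blastocyst libraries and 1.33, 2.25 and 1.79 FPKM in EGFP 8-cell libraries, so that it and Mest were both lowest in EGFP 8-cell embryos. Reads shared by the overlapping ends cannot be assigned to either gene here.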

How the data were processed

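Total RNA of 8 embryo libraries was measured by RNA-seq. The authors deposited 1 table of FPKM values, per the file headers, and all 8 columns, 1 for each library, entered the tests. Tools named without roles or versions, per the submitters' processing notes, are Bowtie2, Trim Galore, SAMtools, HISAT2 and featureCounts, with build mm10. How strand and annotation were handled is not given in the sources used here. Columns for 8-cell embryos without a treatment were taken as EGFP 8-cell, since the labels name no other such group. FPKM is relative to the library total, so a change in RNA per embryo cannot be seen.

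Whole fragments were recovered for all 23316 genes above 0 (tolerance 0.001 fragments). The least gene length that gave whole numbers in all 8 libraries was taken. For genes with few fragments the true counts may be a multiple of those given. Replicates correlated at 0.977 to 0.992 (log2 scale) and differed beyond counting noise. Only the compared groups entered each fit, a two-sided test with limma 3.58.1 (R 4.3.3, moderated with a mean-variance trend) of log2(FPKM + 1) for genes of at least 1 FPKM in 3 libraries (8-cell groups) or 2 (with blastocysts), with Benjamini-Hochberg adjustment over all tested genes and calls below 0.05. No count test was run on the recovered fragments. The fit was tested on simulated data. Coordinates and promoters came from RefSeq (GRCm38.p6, the assembly of mm10), where 98.8% of symbols matched.

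The members and lists were chosen with earlier results of these data known. All 33 genes are named; those at 1 FPKM or more in at least 3 of 8 libraries get every value, and from other lists called genes are named. Alternatives were another pseudocount (0.1 FPKM), no filter or 5 FPKM, 2 scalings, all libraries in 1 fit, the replicate number as a block, and leaving out each library, or p150DN replicates 2 and 3 together.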

Additional observations from a re-analysis of the deposited data

How the results depend on the processing

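For p150DN against EGFP 8-cell embryos 11 imprinted genes were called, 6 at a filter of 5 FPKM, which left 11 to test, and 4 with p150DN replicates 2 and 3 both left out. Leaving out 1 library gave 8 to 13, fewest without EGFP 8-cell replicate 1 and most without p150DN replicate 1, where Plagl1, tested only when 1 library was left out or with no filter, was among the calls. Between the stages 17 were called, 11 at a filter of 5 FPKM, which left 14 to test, and 14 to 18 with 1 library left out. For p150DN 8-cell embryos against blastocysts 7 were called, 3 with no filter on low values and 1 with p150DN replicates 2 and 3 both left out. Leaving out 1 library there gave 0 to 9, with 4 without p150DN replicate 2, 1 without blastocyst replicate 1 and 0 without blastocyst replicate 2. Igf2r, Sfmbt2 and Zdbf2 stayed called for p150DN in every alternative that tested them, as did 13 of the 17 between the stages and none of the 7 against blastocysts.

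With a replicate block the counts were 13, 17 and 7. Same-numbered 8-cell libraries correlated in their deviations at 0.06, 0.10 and 0.03, and not every library correlated best with its own number. These low values do not decide whether same-numbered samples were paired.

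Of the values of single genes, 7 of 297, 5 of 267 and 7 of 303 changed sign in the 3 comparisons, none of a called gene. For p150DN against EGFP 8-cell embryos these were Inpp5f at -0.0044 with median-of-ratios scaling and -0.19 with quantile normalization, Nnat at -0.063 with quantile normalization, and Mcts2, which ranged from -0.157 (without EGFP 8-cell replicate 3) to 0.0943 (without p150DN replicate 3) with 1 library left out. With p150DN replicates 2 and 3 both left out Mcts2 was at 0.0238 and Cdkn1c at -0.32. Between the stages Snrpn was at -0.17 and -0.10 under the 2 scalings, and Impact at 0.0591 with the replicate block and at -0.075 to 0.0591 with 1 library left out. Against blastocysts, with 1 library left out, Mest ranged from -0.54 to 0.068 and Nnat from -0.159 to 0.0372, and with p150DN replicates 2 and 3 both left out Nnat was at 0.13, Peg3 at -0.40, Plagl1 at -0.49 and Cdkn1c at -0.12. The cause of these changes was not tested. Genes with few fragments, such as Ndn, Magel2 and Dlk1, are limited by depth.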
